A study of Mus musculus with 6 samples.

Results

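The genes described here are 10 that sense foreign or abnormal RNA or act against viruses: Ddx58 (RIG-I), Ifih1 (MDA5), Dhx58 (LGP2), Mavs, Tlr3, Eif2ak2 (PKR), Zbp1, Rsad2 (viperin), Mx1 and Bst2 (tetherin). They were chosen by name, as the probe sets whose only annotated gene symbol is on that list, and all 10 were found among the 20239 named genes of the arrays, with 1 probe set each. The measurements are 6 one-colour arrays of total RNA from mouse pericytes of the C57BL/6 background, cells that were isolated and then kept for 5 days either as control or in platelet-derived growth factor BB, at a dose of 100 ng/ml, with 3 arrays in each group. This factor, PDGF-BB, is the main ligand of the pericyte receptor PDGFR-β. The tissue the cells came from, whether the control received a vehicle, and whether the arrays of a group came from separate animals or cultures are not stated in the labels, so p-values measure the spread between these 6 arrays, which may be technical.

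RIG-I and MDA5 are helicases that recognise viral RNA in the cytosol and signal through the adaptor MAVS on mitochondria, while LGP2 is a relative without signalling domains that modulates both. TLR3 detects RNA in endosomes and signals through the adaptor TRIF. These routes switch on interferon genes, and secreted interferon, acting through its receptors and STAT and IRF factors, raises the transcription of most of the sensors and effectors themselves, so the same genes are both the detectors and the products of the response. In mesenchymal cells such as pericytes and fibroblasts most of them are present at a low level at rest. In bulk RNA of this kind, a change in the number of cells that express a gene and a change in RNA per cell cannot be told apart.

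Promoter sequences are shown first. The control regions of interferon-responsive genes commonly hold the interferon-stimulated response element (ISRE), read by STAT-IRF complexes. Whether this element had a part in the rise of 9 of the 10 genes was not tested. RefSeq promoters (250 bases before to 50 after a transcript start, build GRCm38.p6) were matched by symbol for 7 of the 10 genes, all but Dhx58, Zbp1 and Mx1. The letters GAAA, then any 2 bases, then GAAA, or the reverse complement of these (TTTC, any 2 bases, TTTC), a simple form of the ISRE, stand in capitals in the windows below, which were cut so that at most 30 transcribed bases are shown. The windows are chr8:71537473-71537722 (minus strand) for Bst2, chr12:26456453-26456702 (minus strand) for Rsad2, chr17:78882543-78882672 (minus strand) for Eif2ak2, chr4:40239796-40239945 (minus strand) for Ddx58, chr2:62646210-62646239 (minus strand) for Ifih1 and chr2:131233813-131234062 (plus strand) for Mavs. Mavs is shown as the member whose level did not pass the test, and its window ends before the transcript start. Tlr3, which rose and also lacks these letters, is not shown.
Bst2: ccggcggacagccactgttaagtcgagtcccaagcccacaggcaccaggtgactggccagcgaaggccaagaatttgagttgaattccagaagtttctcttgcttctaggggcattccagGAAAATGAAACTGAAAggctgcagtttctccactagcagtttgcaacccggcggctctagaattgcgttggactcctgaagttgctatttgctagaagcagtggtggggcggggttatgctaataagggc
Rsad2: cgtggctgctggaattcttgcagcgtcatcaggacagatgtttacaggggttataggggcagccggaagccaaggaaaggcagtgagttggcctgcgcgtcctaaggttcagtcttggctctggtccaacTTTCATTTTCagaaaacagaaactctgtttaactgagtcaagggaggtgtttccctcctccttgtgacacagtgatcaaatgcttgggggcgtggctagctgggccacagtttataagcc
Eif2ak2: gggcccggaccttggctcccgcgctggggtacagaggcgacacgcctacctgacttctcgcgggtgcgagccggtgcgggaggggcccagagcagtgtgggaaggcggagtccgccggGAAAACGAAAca
Ddx58: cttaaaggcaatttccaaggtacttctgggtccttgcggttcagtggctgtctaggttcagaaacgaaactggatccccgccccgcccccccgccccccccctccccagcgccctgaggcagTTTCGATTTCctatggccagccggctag
Ifih1: tctggagaagagaatcGAAACAGAAAccga
Mavs: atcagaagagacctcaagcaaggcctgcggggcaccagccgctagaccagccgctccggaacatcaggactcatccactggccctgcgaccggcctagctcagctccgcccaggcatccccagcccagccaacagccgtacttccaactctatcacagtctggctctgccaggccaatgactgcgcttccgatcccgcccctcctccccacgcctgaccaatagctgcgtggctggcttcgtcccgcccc

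The ISRE letters were present in 5 of the 7 promoters, those of Bst2, Rsad2, Eif2ak2, Ddx58 and Ifih1, and in 3.44% of all 32851 RefSeq promoters of the same length. Bst2 has a pair of overlapping matches that begin -130 and -124 bases from the start, and Rsad2 has a match on the opposite strand that begins at -120. The matches of Ddx58, Eif2ak2 and Ifih1 lie just inside the transcribed part and begin at bases 3, 19 and 33. Tlr3, which also rose, and Mavs, which did not pass the test, have no such letters in this window. In the lists described below, the ISRE letters were in 7 of 18 interferon and receptor genes with a promoter. All 7 were Ifna genes, and none passed the test. Of 20 other antiviral effectors 8 held them. Of these, Ddx60, Shisa5, Trim21 and Trim30a rose, and Apobec3, Ifitm2, Ifitm3 and Slfn5 did not pass. They were in 0 of 17 genes of MAVS and TRIF signalling and 0 of 13 other nucleic acid sensors. The eIF2α and ZBP1 lists had 1 of 8 and 1 of 6. The letters TTC and GAA with any 3 bases between them, those of the gamma-activated site bound by STAT dimers, occurred in Bst2 (from -136, overlapping an ISRE match) and Eif2ak2 (from -178), against 8.30% of all promoters. The letters GGG, any 2 bases and TTTCC, on either strand, a simple NF-κB motif, occurred in Tlr3 alone of the 7 (from -211), against 1.63% of all promoters. A match is a run of letters and not a measured binding site.

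**Figure D1:**
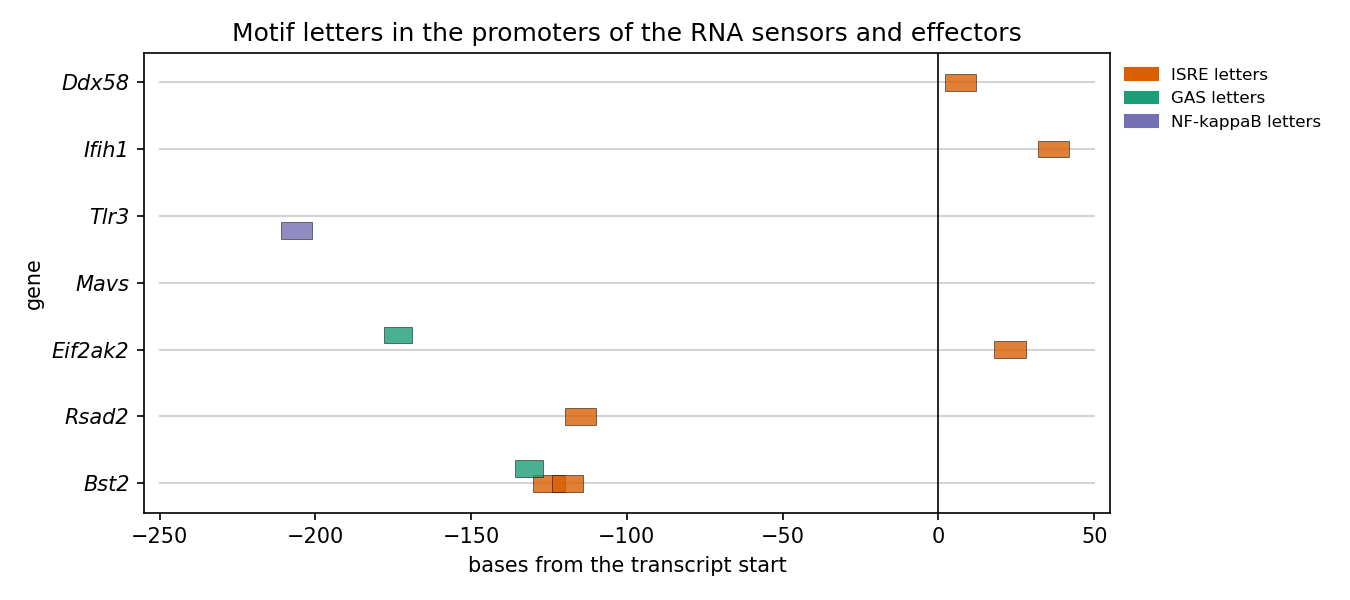
Motif letters in the 7 promoters found in RefSeq, with the distance from the transcript start in bases on the horizontal axis, a grey line for each window searched and a coloured bar for each match on either strand. ISRE letters lie near -120 in Rsad2 and Bst2 and within the first 50 transcribed bases of Ddx58, Ifih1 and Eif2ak2, and the lines of Mavs and Tlr3 hold none.

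Of the 10 genes, 9 rose with PDGF-BB, none fell, and Mavs alone did not pass limma's moderated test (Benjamini-Hochberg adjusted p under 0.05 over all 20239 genes; at an unadjusted p under 0.05 the counts were also 9 and 0). For comparison, 10.1% of all genes were called higher, 11.4% lower and 21.5% in either direction. On omission of PDGF-BB array 1 or 2, 1516 or 1514 genes rather than 2305 were called lower. At least 2-fold increases were seen in 7 of the 10, against 2.04% of all genes. The 10 were listed with earlier results of these data known, so such contrasts with all genes are description and no independent test. The median log2 change of the 10 genes was 1.43, whereas that of all genes was -0.02. In 9 of the 10 all 3 PDGF-BB arrays lay above all 3 control arrays, which was so for 16.9% of all genes; in none of the 10 were they all below, as they were for 20.6% of all genes.

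**Figure D2:**
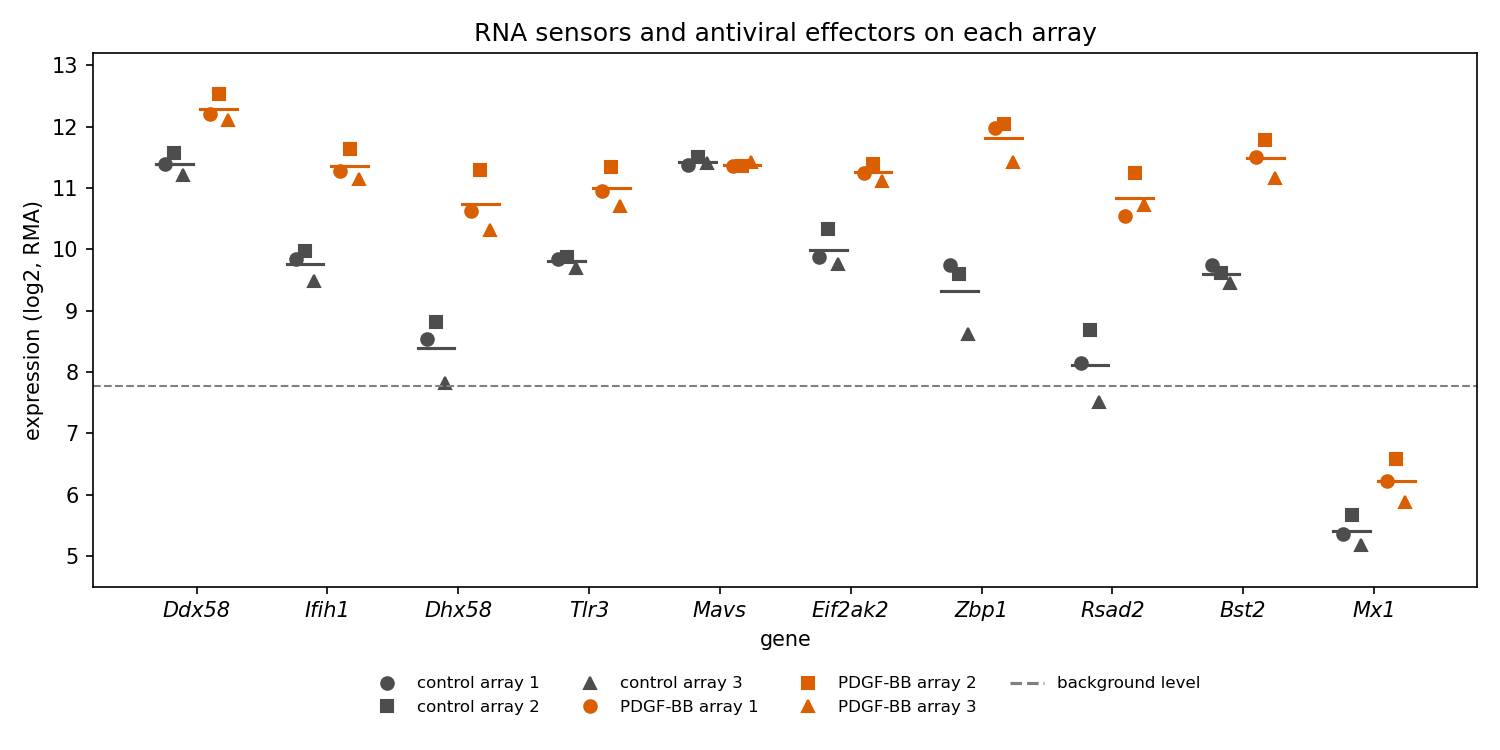
Log2 expression values of the 10 genes on each of the 6 arrays, with grey symbols for control, orange symbols for PDGF-BB, circles, squares and triangles for arrays numbered 1, 2 and 3, and short bars for group means. The groups are separate for every gene but Mavs, and Mx1 lies under the dashed background level of 7.77 on all 6 arrays; heights of different genes are not comparable, because probe sets differ in response.

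Among the cytosolic helicases, Ddx58, the sensor of RNA with a triphosphate end, read 11.39, 11.57 and 11.21 on control arrays 1, 2 and 3 and 12.21, 12.52 and 12.11 with PDGF-BB. The lowest PDGF-BB value exceeded the highest control value by 0.54. Its change was 1.85-fold (log2 change 0.89, 95% interval 0.58 to 1.20, adjusted p = 0.0047, limma). Ifih1, which binds long duplex RNA, read 9.84, 9.97 and 9.49 in control and 11.28, 11.64 and 11.14 with PDGF-BB. These groups were 1.17 apart at their nearest points, and the rise was 3.001-fold (log2 change 1.59, 95% interval 1.20 to 1.97, adjusted p = 0.0017, limma). Dhx58, the helicase that lacks signalling domains, had control values of 8.54, 8.82 and 7.82 and PDGF-BB values of 10.62, 11.29 and 10.32. Control array 3 was low here and lay close to the background level of 7.77, set at the 90th percentile over 19 markers of blood lineages (lymphocytes, mast cells, erythroid cells) taken as absent. Dhx58 rose 5.10-fold (log2 change 2.35, 95% interval 1.60 to 3.10, adjusted p = 0.0033, limma).

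For the adaptor of these helicases the groups overlapped. Mavs read 11.38, 11.50 and 11.41 in control and 11.35, 11.36 and 11.42 with PDGF-BB. Its group means were 11.43 ± 0.06 and 11.38 ± 0.04 (SD, n = 3 each). Its log2 change was -0.05 (95% interval -0.19 to 0.09, adjusted p = 0.65, limma), so the interval spans small changes either way.

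Tlr3, the endosomal receptor of duplex RNA, read 9.84, 9.87 and 9.70 in control and 10.95, 11.34 and 10.71 with PDGF-BB. The control arrays lay within 0.16 of each other and the PDGF-BB arrays within 0.64, with PDGF-BB array 2 the highest. Tlr3 rose 2.29-fold (log2 change 1.20, 95% interval 0.84 to 1.56, adjusted p = 0.0029, limma). Its adaptor Ticam1 (TRIF) went the other way, from 10.78 ± 0.06 to 10.36 ± 0.08 (SD, n = 3 each), and was 1.34-fold lower (adjusted p = 0.0056, limma).

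Eif2ak2, the kinase that on binding RNA phosphorylates the initiation factor eIF2α and slows translation, read 9.88, 10.33 and 9.76 in control and 11.25, 11.39 and 11.12 with PDGF-BB. Control array 2 was the high array of its group, and the groups were still 0.79 apart. The rise was 2.40-fold (log2 change 1.27, 95% interval 0.90 to 1.63, adjusted p = 0.0025, limma). Zbp1, a sensor of left-handed Z-form nucleic acids that can start necroptosis, read 9.74, 9.60 and 8.62 in control and 11.98, 12.05 and 11.42 with PDGF-BB. Array 3 was the low array in both groups. Zbp1 rose 5.63-fold (log2 change 2.49, 95% interval 1.76 to 3.23, adjusted p = 0.0027, limma).

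Of the effectors, Rsad2, a radical SAM enzyme whose nucleotide product stops viral polymerases, read 8.15, 8.69 and 7.51 in control and 10.55, 11.25 and 10.72 with PDGF-BB, so that the groups were 1.86 apart. Control array 3 lay under the background level of 7.77, where values understate a difference. The change was 6.60-fold (log2 change 2.72, 95% interval 1.997 to 3.45, adjusted p = 0.0021, limma). Bst2, a membrane protein that ties budding virions to the cell surface, read 9.75, 9.61 and 9.45 in control and 11.50, 11.78 and 11.17 with PDGF-BB. Its groups were 1.42 apart and it rose 3.68-fold (log2 change 1.88, 95% interval 1.51 to 2.25, adjusted p = 9.7e-04, limma).

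Mx1, a dynamin-like GTPase that blocks influenza viruses, is known to carry a deletion in C57BL/6 and many other laboratory strains that leaves no functional protein. Where the probes lie relative to it is not given in the sources used here. Mx1 read 5.37, 5.67 and 5.18 in control and 6.22, 6.59 and 5.88 with PDGF-BB. All 6 values were under the background level, so no fold is given. The log2 change was 0.83 (95% interval 0.37 to 1.28, adjusted p = 0.024, limma), and the groups were 0.21 apart at their nearest points. Omitting control array 1 (adjusted p = 0.057), control array 3 (0.076), PDGF-BB array 1 (0.074) or PDGF-BB array 2 (0.053) ended the call and left 8 of the 10 genes called. When arrays were paired by their number, as a block in the model, Mx1 had an adjusted p of 0.0015. Its neighbour in the family, Mx2, named after its value was seen, went from 6.45 ± 0.50 to 8.61 ± 0.41 (SD, n = 3 each), at least 4.48-fold higher (adjusted p = 0.0031, limma). The probes of the related Mx genes were not checked for shared sequence.

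**Figure D3:**
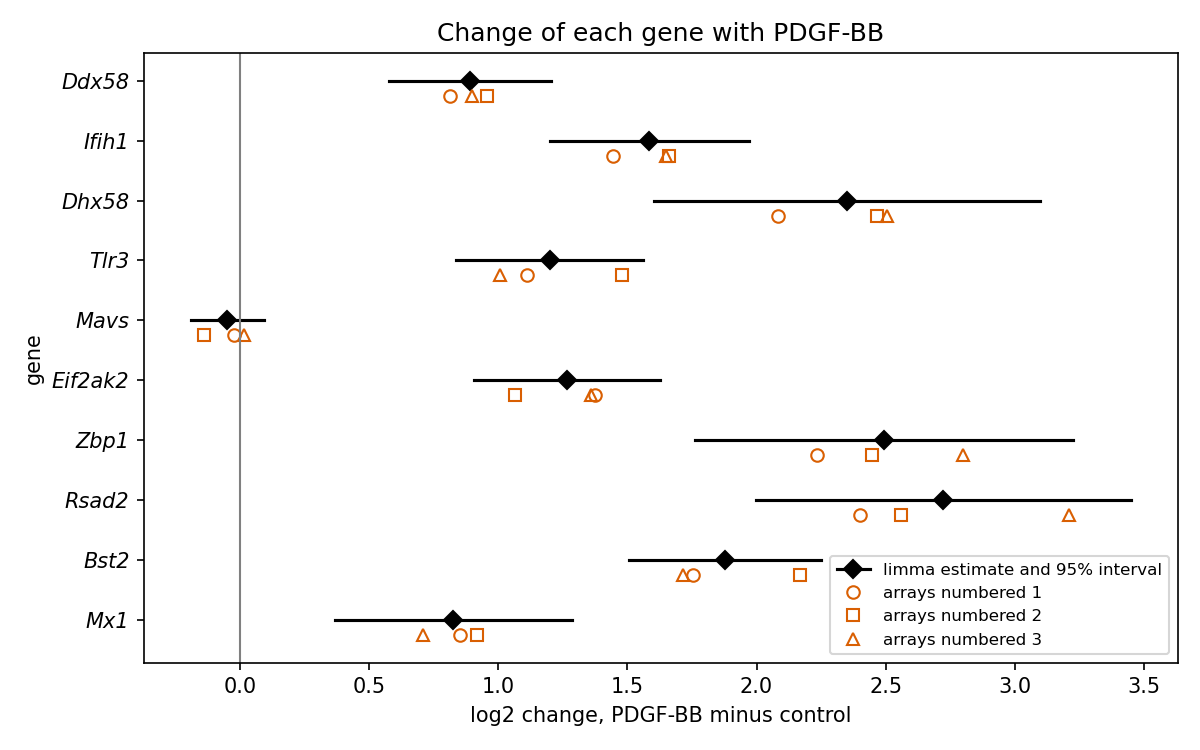
Log2 change of each of the 10 genes with PDGF-BB, as limma's estimate (black diamond) with its 95% interval (line), and the difference between the arrays with the same number (open orange symbols). All intervals but that of Mavs lie above 0, and the 3 numbered differences of Rsad2 run from 2.40 to 3.21 while those of Ddx58 run from 0.81 to 0.96.

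The 9 genes that rose also shared their pattern between arrays of a group. Control array 3 was the lowest control array for 9 of the 9 and PDGF-BB array 2 the highest PDGF-BB array for 9 of the 9. Over all genes these arrays held those places for 33.0% and 33.3%, and over the 2037 genes called higher for 58.6% and 46.3%. Control array 2 was the highest control array for 7 of the 9, against 34.9% of all genes. PDGF-BB array 3 was the lowest PDGF-BB array for 8 of the 9, against 41.5% of all genes. All 9 are read from the same 6 arrays, so these are not independent counts. Same-numbered arrays therefore moved in parallel, and the median difference of the 9 genes was 1.44, 1.66 and 1.65 between the arrays numbered 1, 2 and 3. In a limma fit that took the number as a block the standard error was smaller for 9 of the 9, and their adjusted p ranged from 3.3e-04 to 0.0015. The pairing was read from these same arrays, so the smaller errors are no separate support for it.

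**Figure D4:**
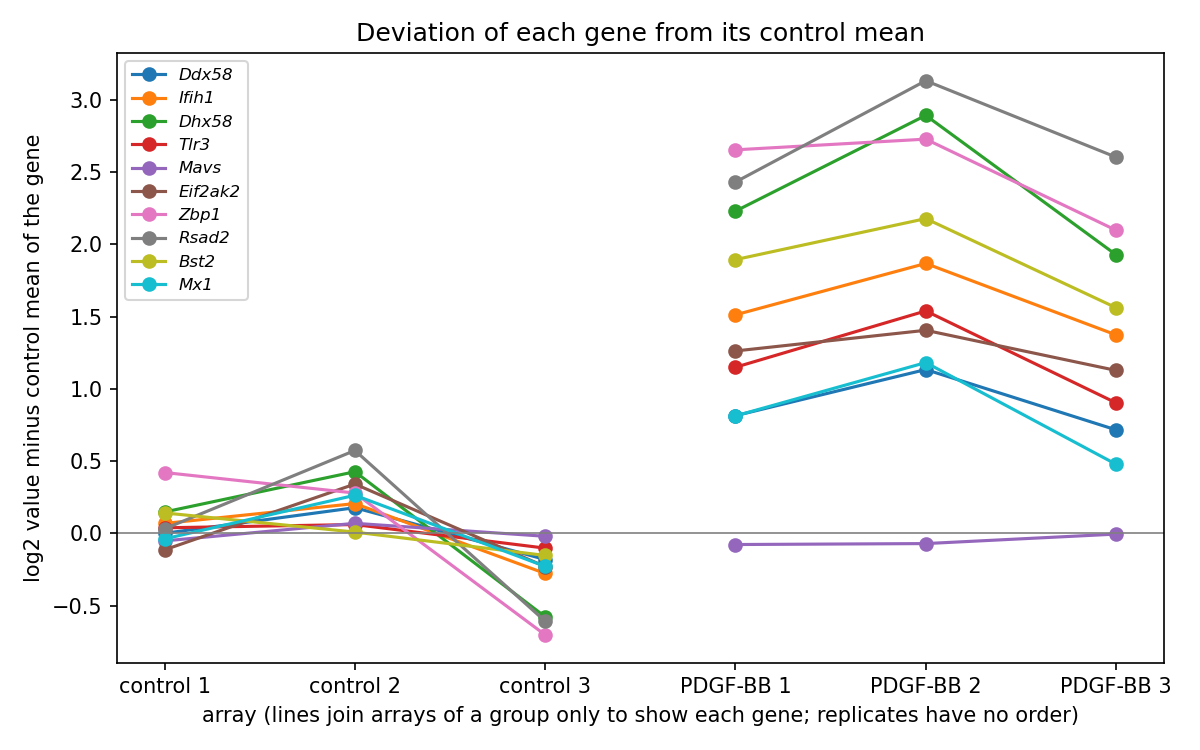
Each gene's log2 value on the 6 arrays after subtracting its control mean, with a coloured line per gene that joins arrays of a group only to make the gene easy to follow. Control array 3 is the low control array and PDGF-BB array 2 the high PDGF-BB array for the 9 genes that rose, while the line of Mavs stays near 0.

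By the root mean square difference over the 6 arrays, after each gene was centred on its control mean, the 5 other genes nearest to the median profile of the 10 were Ube2l6 (0.033 log2 units), Mitd1 (0.054), Xaf1 (0.079), Trim30a (0.099) and Nmt2 (0.11). Ube2l6, the conjugating enzyme for ISG15, rose 2.76-fold (10.33 ± 0.26 to 11.79 ± 0.19, SD, n = 3 each). Xaf1, an antagonist of the apoptosis inhibitor XIAP, rose 2.78-fold and Trim30a, a TRIM family protein, 2.91-fold. Mitd1, which acts in abscission at the end of cell division, and Nmt2, which attaches myristate to proteins, rose 2.72-fold and 2.66-fold. These genes were picked for their likeness, so their own tests add nothing to it.

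The genes beside the sensors on the chromosome were also read, as a property that the choice of the 10 did not use. Of 20 nearest measured neighbours in RefSeq's gene order, 4 rose and 3 fell, against 10.1% and 11.4% of all genes. Cmpk2, among those that rose, is also on the list of other antiviral effectors below. Cmpk2, a mitochondrial nucleotide kinase that lies next to Rsad2, rose 4.99-fold (9.09 ± 0.59 to 11.41 ± 0.34, SD, n = 3 each, adjusted p = 0.0030, limma), while Rnf144a on the other side of Rsad2 was 1.64-fold lower. Gm6548, a gene model beside Eif2ak2, rose 1.49-fold, Kat2a, a histone acetyltransferase beside Dhx58, 1.29-fold, and Plvap, beside Bst2, 1.25-fold. Sorbs2, beside Tlr3, was at least 3.13-fold lower, and Pmepa1, beside Zbp1, 1.51-fold lower. Kat2a no longer passed when control array 2, control array 3, PDGF-BB array 1 or PDGF-BB array 2 was omitted (adjusted p = 0.053 to 0.058), and Plvap when any array other than control array 1 was (0.087 to 0.11). Pmepa1 had an adjusted p of 0.060 without control array 3 and Sorbs2 of 0.051 without PDGF-BB array 3.

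Among 22 measured genes of MAVS and TRIF signalling 3 rose and 2 fell, with a median log2 change of -0.10. These are 13.6% and 9.09% of the list, near the 10.1% and 11.4% of all genes. Irf7, the interferon regulatory factor that is itself induced by interferon, went from 9.43 ± 0.59 to 12.32 ± 0.36 (SD, n = 3 each), 7.41-fold higher (adjusted p = 0.0018, limma). Trim25, the ubiquitin ligase that activates RIG-I, rose 1.94-fold, and Azi2 (NAP1), an adaptor of the kinase TBK1, 1.46-fold. Besides Ticam1, Ikbkg (NEMO), the regulatory subunit of the IKK complex, fell and was 1.31-fold lower. Tbk1 and Irf3, the kinase and the factor directly below MAVS, had log2 changes of 0.12 (adjusted p = 0.52, limma) and -0.25 (adjusted p = 0.055) and were named after their values were seen. In the block fit 4 rather than 3 genes of this list rose and 4 rather than 2 fell. The genes added, named after their values were seen, were Unc93b1, the chaperone of endosomal Toll-like receptors (log2 change 0.63, adjusted p = 0.062 without and 0.0032 with the block), Irf3 (0.044 with the block) and Tradd (0.043).

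No interferon gene passed the test. Of 13 measured interferon genes, among them Ifnb1, Ifng and 7 of the Ifna family, 0 were called in limma, 0 were under 0.05 in unadjusted p, and their log2 changes ran from -0.17 to 0.07. Both group means of 10 of the 13 lay under the background level, where a change may go unseen. The other 3, in control and with PDGF-BB, were Ifna5 (9.03 and 8.92), Ifnl2 (10.59 and 10.43) and Ifnl3 (8.59 and 8.61). The probes of the Ifna and Ifnl genes, which have close relatives, were not checked for shared sequence, so these levels may not be their own. Ifnb1 (interferon β), named after its value was seen, read 6.13 ± 0.07 and 6.14 ± 0.11 (SD, n = 3 each). Of the 6 receptor chains 4 fell, against 11.4% of all genes. Ifnar2, the high-affinity chain of the type I interferon receptor, was 1.49-fold lower (12.26 ± 0.08 against 11.69 ± 0.12, adjusted p = 0.0036, limma), and Il10rb, a chain shared by the interferon λ and IL-10 receptors, 1.58-fold lower. Ifnar1 was 1.21-fold lower (adjusted p = 0.048), but missed the threshold in the block fit (0.054) and on omission of any array other than control array 3 (0.11 to 0.14). Ifnlr1, the fourth of these, had a log2 change of -0.23 (adjusted p = 0.049) with both means under the background level. It missed the threshold in the block fit (0.084) and on omission of each of the 6 arrays (0.054 to 0.14). In the block fit 2 genes of this list fell, and the count was also 2 on omission of control array 1, control array 2, PDGF-BB array 1 or PDGF-BB array 2.

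Other antiviral effectors rose in most cases. Of 23 measured, 15 rose (65.2%, against 10.1% of all genes). None fell, against 11.4% of all genes (0 also at an unadjusted p under 0.05 and under each other model run). The median log2 change was 0.84. Adar, which edits adenosines in duplex RNA and so hides cellular RNA from MDA5, rose 2.12-fold (10.10 ± 0.12 to 11.18 ± 0.10, SD, n = 3 each, adjusted p = 8.0e-04, limma). Trim30a and Slfn2, a Schlafen family protein, rose 2.91-fold and 3.19-fold. The remaining 12 that rose were Cmpk2, Mx2, Ddx60, Zc3hav1, Trim21, Xaf1, Parp9, Parp12, Parp14, Dtx3l, Sp100 and Shisa5, and the range over all 15 was 0.26 (Shisa5) to 2.32 (Cmpk2) log2 units. Shisa5 (adjusted p = 0.019) did not pass on omission of control array 3, PDGF-BB array 1 or PDGF-BB array 2 (up to 0.072). The 8 that did not pass included the 3 measured Ifitm genes, which code for proteins that block virus entry. Of these Ifitm1, singled out with its values known, was 0.52 log2 units higher in mean with an adjusted p of 0.21, but 0.0093 in the block fit, where 16 genes of the list rose. The probes of Trim30a, Slfn2 and the Ifitm genes, which have close relatives, were not checked for shared sequence.

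Sensors of DNA and endosomal or helicase sensors outside the 10 also rose in part, with 7 of 15 higher (46.7%, against 10.1% of all genes). None was lower (0 also at an unadjusted p under 0.05), against 11.4% of all genes. The count that rose was 5 without dim genes and 8 with median centring. Cgas, the cytosolic DNA sensor, rose at least 2.17-fold (7.66 ± 0.03 to 8.77 ± 0.22, SD, n = 3 each, adjusted p = 0.0015, limma) and Ddx21, a nucleolar helicase, 1.71-fold. Aim2, the inflammasome DNA sensor, had a log2 change of 0.64 (adjusted p = 0.0024) with both means under the background level. So did Tlr7 (log2 change 0.79, adjusted p = 0.0032, limma), named with its values known. Ddx41, likewise named (adjusted p = 0.033), did not pass on omission of any array other than PDGF-BB array 3 (up to 0.0998). Downstream of ZBP1, Ripk3 and Mlkl, the kinase and the pore-forming executioner of necroptosis, rose 2.25-fold (9.92 ± 0.26 to 11.09 ± 0.08) and 2.39-fold (10.58 ± 0.29 to 11.84 ± 0.19, SD, n = 3 each). Casp6 was 1.59-fold lower (adjusted p = 0.0023, limma), and the other 3 of the 6 measured genes of that list did not pass. The 2 that rose and the 1 that fell are 33.3% and 16.7% of this short list, against 10.1% and 11.4% of all genes.

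Around PKR, 3 of 9 measured genes of eIF2α phosphorylation and its outputs rose and 2 fell, against 10.1% and 11.4% of all genes. Ppp1r15b, the constitutive subunit of the eIF2α phosphatase, rose 1.48-fold, while Ppp1r15a (GADD34), its stress-induced counterpart, was 1.42-fold lower. Atf4, the transcription factor translated when eIF2α is phosphorylated, rose 1.32-fold in RNA. Prkra (PACT), a protein activator of PKR, was 1.34-fold lower (adjusted p = 0.041, limma), and Dnajc3 (p58IPK), an inhibitor of PKR, was 1.17-fold higher (adjusted p = 0.047). Neither passed when any array other than control array 1 was omitted (adjusted p = 0.062 to 0.13), nor did Dnajc3 in the block fit (0.080). Ddit3 (CHOP), a stress-induced transcription factor also singled out with its values known, had an adjusted p of 0.056 at a log2 change of 0.50, and passed in the block fit (0.0048). The count that fell was 1 in each of those 5 omissions. None of the other eIF2α kinases Eif2ak1, Eif2ak3 and Eif2ak4 passed (adjusted p = 0.069 to 0.99).

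**Figure D5:**
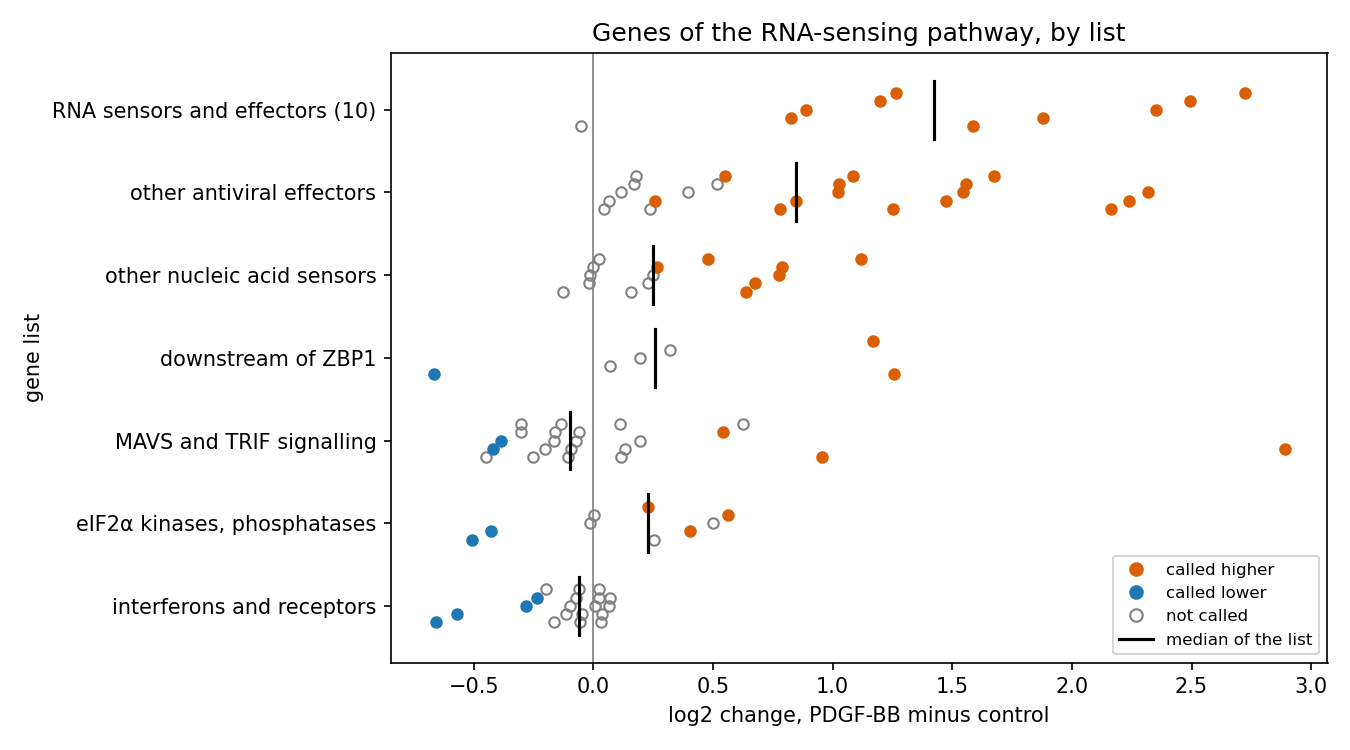
Log2 change with PDGF-BB of each measured gene of the 10 and of the 6 other lists of the pathway, with filled orange points for genes called higher, filled blue points for genes called lower, open points for genes that did not pass, and a black bar at each list's median. The medians lie at 1.43 for the 10 genes and 0.84 for other antiviral effectors, and at -0.06 for interferons and receptors, where the filled points are all blue.

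Markers checked against the label put Pdgfrb at 12.98 ± 0.11 (control) and 12.85 ± 0.09 (PDGF-BB; SD, n = 3 each), while both means of 3 of 12 pericyte markers, Abcc9, Des and Vtn, lay under the background level, and those of Rgs5 (7.77 and 7.71) lay at it. Kcnj8 was also near that level, at 7.85 in control and 7.63 with PDGF-BB. Of the pericyte markers, Anpep rose (log2 change 0.87, adjusted p = 0.0028, limma), while Acta2 (-1.07, 0.024) and Cd248 (-0.33, 0.040) fell. That is 8.33% and 16.7% of the 12, near the 10.1% and 11.4% of all genes. Acta2 did not pass on omission of any 1 control array or PDGF-BB array 1 (adjusted p up to 0.067), nor Cd248 on omission of any array other than control array 1 (up to 0.13). In the block fit Cspg4 (log2 change 0.91, adjusted p = 0.015) and Mcam (-0.52, 0.023) passed as well. Fibroblast markers such as Pdgfra (12.90 in control and 12.82 with PDGF-BB) were high, with 7 of 8 above the background level. Of the 8, 25% rose and 0% fell, against 10.1% and 11.4% of all genes. Among them Lum read 7.91, 7.78 and 8.54 in control and 9.84, 11.67 and 11.45 with PDGF-BB, 7.53-fold higher (adjusted p = 0.0062, limma), and Dpt rose 1.65-fold (adjusted p = 0.019). Dpt did not pass on omission of control array 3, PDGF-BB array 2 or PDGF-BB array 3 (up to 0.066). The part of these marker changes in the rise of the sensors was not tested. Macrophages and dendritic cells also express these sensors. For 12 of their 14 markers both means were under the background level, among them Ptprc (6.17 in both groups) and Adgre1 (5.80 and 5.84). The mean level of the 14 ran from 6.97 to 7.03 on control arrays and from 7.01 to 7.17 on PDGF-BB arrays. Of the 14, Cd14 (log2 change 0.80) and Mpeg1 (1.40) rose and Cd68 (-0.42) and Lyz2 (-0.49) fell, and their part was likewise not tested. The share was 14.3% in each direction, near the 10.1% and 11.4% of all genes. Both means of Mpeg1 and of Lyz2 lay under the background level. Cd68 did not pass on omission of PDGF-BB array 1 or 2 (adjusted p up to 0.067). Of 9 endothelial and 6 epithelial markers none passed in limma, and 1 and 0 had an unadjusted p under 0.05. The median log2 value of the 20239 genes was 8.43 to 8.46 on all 6 arrays, and arrays of a group correlated across genes at r = 0.994 to 0.996.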

How the data were processed

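The file deposited by the authors gives log2 values for 21225 probe sets on 6 arrays. Per the submitters' processing notes RMA was used, a method that corrects background, quantile-normalizes and summarises probe sets on the log2 scale, so a shift common to all genes is not seen. Software, version, array build and filters: not given in the sources used here. GEO's platform annotation gave exactly 1 symbol to 20239 probe sets; the other 986 (4.65%) entered only an alternative. Groups came from the sample titles.

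Limma (version 3.58.1, R 4.3.3; lmFit, eBayes) was run on all 6 arrays with group as the only factor, two-sided, with Benjamini-Hochberg adjustment over the 20239 genes; it was tested on simulated data. Log2 changes are PDGF-BB minus control, intervals are 95%, and folds are 2 to the power of the change, given as "at least" where the lower mean lay under 7.77 and not given where both did. That level is the 90th percentile of the mean values of 19 measured of 22 listed markers. Arrays give no read depth, and 3 per group limits the precision. Genes named are the 10, up to 3 called genes of each list and direction with the smallest p, called neighbours and the 5 nearest profiles; others are marked where named. The 10 genes and all lists were chosen with earlier results of these data known. Some genes of the lists are not analysed here.

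In each group the labels number the arrays 1 to 3, with no word on what a number means. Deviations from group means correlated across genes at 0.25, 0.32 and 0.25 between same-numbered arrays and at -0.28 to 0.01 between others. Such deviations cancel within a group, so the low values between others follow in part from the positive ones and are no separate evidence. A fit with the number as a block, which pairs the arrays, was therefore run as an alternative and is given where it changes a call. Counts, intervals and p-values given without mention of the block come from the fit with group only, which ignores any such pairing. Scan date and slide were not used. Alternatives were repeated quantile normalization, median centring, the block, a filter on dim genes, all probe sets, trended and robust eBayes, another background percentile and leaving out each array.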

Additional observations from a re-analysis of the deposited data

How the results depend on the processing

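Of the 10 genes, 9 were called higher under repeated quantile normalization, median centring, the replicate block, all probe sets and trended robust eBayes. The filter at the 50th percentile of mean signal removed Mx1 and left 8. Leaving out 1 array gave 8 to 9, with Mx1 the gene lost, and 0 of the 10 fell in each of these fits. Over all 20239 genes, the count that rose was 1420 to 2031 and the count that fell 1514 to 2188 when 1 array was left out, against 2037 and 2305 on all 6; the count that fell was 1516 and 1514 without PDGF-BB array 1 and 2.

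In the MAVS and TRIF list the count that fell was 2, and 5 with repeated quantile normalization, 4 with the replicate block and 4 without dim genes; without 1 array it was 2 to 3. In the list of interferons and receptors 4 fell, 2 with the replicate block, and 2 to 3 without 1 array. In the eIF2α list 2 fell, and 1 to 2 without 1 array. Over 43 named genes and their alternatives, 478 of 512 values kept their direction and side of the threshold, 34 no longer passed and 0 changed direction; the cause was not tested. Among the genes of the pathway lists, the replicate block ended the calls of Ifnar1, Ifnlr1 and Dnajc3 and brought Irf3, Tradd, Unc93b1, Ifitm1 and Ddit3 under the threshold; it changed no call of the 10. With the background level at the 75th percentile of its markers (7.29), Mx1 was still the 1 gene of the 10 with a control mean under it.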
